A study of Mus musculus with 12 samples.

Results

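The 9 genes described here encode 6 Krüppel-like factors (Klf2, Klf4, Klf5, Klf6, Klf10 and Klf15) and the 3 NR4A nuclear receptors (Nr4a1, Nr4a2 and Nr4a3). They were taken by gene symbol, 1 row per gene, from 50600 annotated genes. The rule uses no measured value, but the genes were proposed with earlier results of these data known. All 9 passed the filter on low counts, as did 24660 genes in all. RNA was sequenced from mouse aorta, from the level of the left subclavian artery down to the diaphragm, in 3 groups of 4 mice. Every mouse, controls included, was a C57BL/6J animal of the Eln+/- genotype, which leaves a single functional elastin allele in all cells, so no group shows the factors in an aorta with normal elastin. Controls had drinking water without drug. The on-drug mice drank minoxidil, which dilates arteries by opening potassium channels gated by ATP, for 2 weeks from 2.5 months of age. Off-drug mice had the same course and then 1 week without the drug. The labelled age was 3 months in each group, a label too coarse to show the 1 drug-free week. The labels number the libraries within a group, and the hour of collection was not given in the sources used here.

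Krüppel-like factors bind GC-rich and CACCC sequences through zinc fingers at their C-terminus. In the vessel wall KLF2 and KLF4 are known as flow-induced factors of the endothelium, switched on by the kinase ERK5 and MEF2 factors, and KLF4 and KLF5 also for their part in the phenotypic change of smooth muscle cells. NR4A receptors are orphan nuclear receptors that need no known ligand. Their abundance bears on their activity, which was not measured here. Their genes are immediate-early genes, transcribed within minutes of cyclic AMP, calcium or growth factor signals, often through CREB.

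Stretches upstream of 5 of the genes are shown first, the 3 NR4A genes for a motif that recurs in their promoters and the 2 flow-induced KLF genes for comparison. RefSeq (GRCm38.p6) promoter windows were found for 7 of the 9 genes and for neither Klf5 nor Klf10. Each was searched on both strands for TGACG, the half-site of the cyclic AMP response element, for the E-box CACGTG, for the glucocorticoid receptor half-site AGAACA, and for the CArG and MEF2 boxes. For Nr4a1, Nr4a2, Nr4a3, Klf4 and Klf2 the bases before the annotated gene start are printed 5′ to 3′ on the gene's strand, with matches in capitals. CGTCA is TGACG read on the other strand, and the longer capitals in Nr4a2 and Klf2 are MEF2 boxes.
Nr4a1 (chr15:101266596-101266845, plus strand): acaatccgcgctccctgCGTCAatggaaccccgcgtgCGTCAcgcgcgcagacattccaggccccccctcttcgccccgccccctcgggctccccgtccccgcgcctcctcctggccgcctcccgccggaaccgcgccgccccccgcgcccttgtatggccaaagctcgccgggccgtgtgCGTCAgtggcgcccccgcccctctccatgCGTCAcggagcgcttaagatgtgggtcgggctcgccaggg
Nr4a2 (chr2:57124004-57124253, minus strand): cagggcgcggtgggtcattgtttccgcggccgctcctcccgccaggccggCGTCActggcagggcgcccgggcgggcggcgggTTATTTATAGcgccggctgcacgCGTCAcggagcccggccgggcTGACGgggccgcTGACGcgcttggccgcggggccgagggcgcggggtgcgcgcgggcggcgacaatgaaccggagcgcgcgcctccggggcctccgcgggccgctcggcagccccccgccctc
Nr4a3 (chr4:48045055-48045152, plus strand): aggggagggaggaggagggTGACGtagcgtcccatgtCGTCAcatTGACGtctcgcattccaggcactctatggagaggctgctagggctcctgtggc
Klf4 (chr4:55532476-55532725, minus strand): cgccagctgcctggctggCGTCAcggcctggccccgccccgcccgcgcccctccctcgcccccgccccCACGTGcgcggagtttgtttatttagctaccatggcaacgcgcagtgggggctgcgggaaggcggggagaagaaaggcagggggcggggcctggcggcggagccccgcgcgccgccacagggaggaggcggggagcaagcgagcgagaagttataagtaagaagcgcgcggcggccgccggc
Klf2 (chr8:72318812-72319032, plus strand): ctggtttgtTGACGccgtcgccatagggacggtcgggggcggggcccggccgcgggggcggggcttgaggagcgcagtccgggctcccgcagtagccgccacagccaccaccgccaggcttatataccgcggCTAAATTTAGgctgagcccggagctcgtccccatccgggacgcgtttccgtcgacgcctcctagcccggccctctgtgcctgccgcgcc

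Each of the 3 NR4A windows held 4 TGACG half-sites. In Nr4a3, 1 of them, at bases -147 to -143 from the RefSeq start, lies past the stretch printed, within the annotated gene. At least 1 half-site was present in 17.8% of all 32851 promoter windows and 4 or more in 0.137%. Among the 16760 windows of genes tested here, 23.6% held at least 1 and 0.245% (41 windows) held 4 or more. The KLF windows held fewer half-sites, with 2 in Klf15, 1 each in Klf2 and Klf4 and 0 in Klf6. An E-box, present in 6.02% of all windows, occurred in Klf4 (1), Klf6 (1) and Klf15 (2). A MEF2 box, present in 2.92%, occurred once each in Klf2 and Nr4a2. AGAACA (16.1% of windows) and the CArG box (1.47%) had no match in the 7 windows. These are matches of letters, and no binding was measured.

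**Figure D1:**
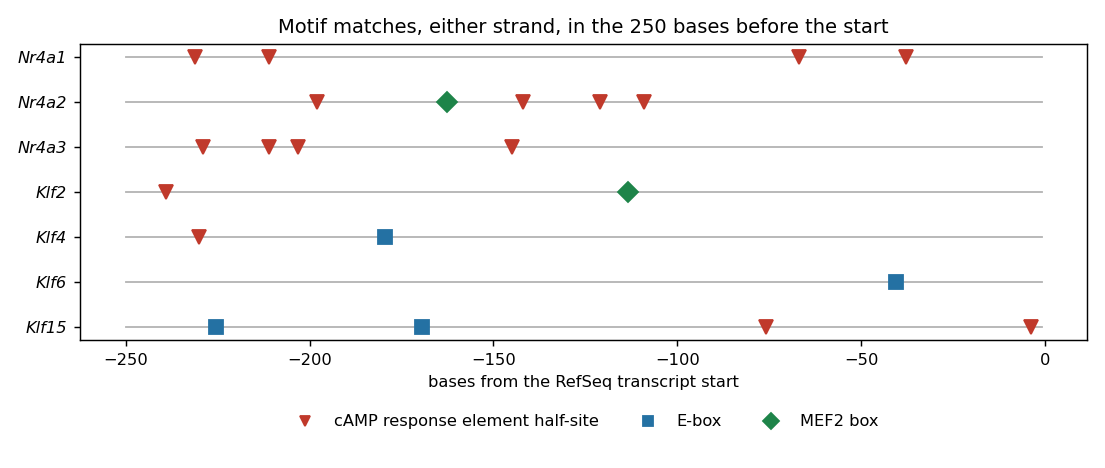
Position of motif matches on either strand in the 250 bases before the RefSeq transcript start of 7 genes; the x axis gives bases from the start, and each symbol is 1 match. Nr4a1, Nr4a2 and Nr4a3 carry 4 half-sites of the cyclic AMP response element each, whereas the KLF genes carry 0 to 2.

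Library totals ran from 41524501 to 109423243 counts. The scarcest of the 9 genes, Klf5, had 38 to 141 counts per library, and the most abundant, Klf6, 11009 to 34795. Levels are given as CPM, edgeR's scaled read counts after correction of library sizes by TMM (trimmed mean of M-values), and errors beside them are SDs over 4 libraries. Smooth muscle markers, the defining genes of the labelled tissue, summed to between 15940 and 20850 CPM in all libraries, with none of the 7 genes at 0. In bulk tissue, fewer cells of a type and less RNA per cell cannot be told apart.

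Levels between genes were compared per length, as RPKM, the CPM divided by the exon length in kilobases. In controls Klf6 was the most abundant at 64.9 ± 5.7 RPKM, followed by Nr4a1 at 43.7 ± 7.0 and Klf15 at 19.9 ± 1.9 RPKM, with no overlap between neighbours. Klf2 (11.98 ± 1.09 RPKM), Klf10 (10.6 ± 2.9 RPKM) and Klf4 (9.88 ± 0.73 RPKM) overlapped in sequence. Nr4a2 (2.69 ± 0.60 RPKM) overlapped Nr4a3 (1.96 ± 0.29 RPKM), and Klf5 was the lowest at 0.445 ± 0.051 RPKM. On drug the order was the same, but Nr4a1 (27.2 ± 10.4 RPKM) overlapped Klf15 (25.7 ± 6.1 RPKM). Off drug Nr4a1 stood lower in the order, at 9.62 ± 4.07 RPKM, behind Klf6 (74.0 ± 3.8 RPKM), Klf15 (18.9 ± 1.3 RPKM) and Klf2 (11.7 ± 1.8 RPKM), and its range overlapped those of Klf2 and Klf10. Klf10 and Klf4 followed at 7.92 ± 1.16 and 7.64 ± 0.41 RPKM, with overlap between them. At the low end Nr4a2 (1.57 ± 0.28 RPKM), Nr4a3 (0.927 ± 0.400 RPKM) and Klf5 (0.691 ± 0.029 RPKM) each overlapped the next.

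**Figure D2:**
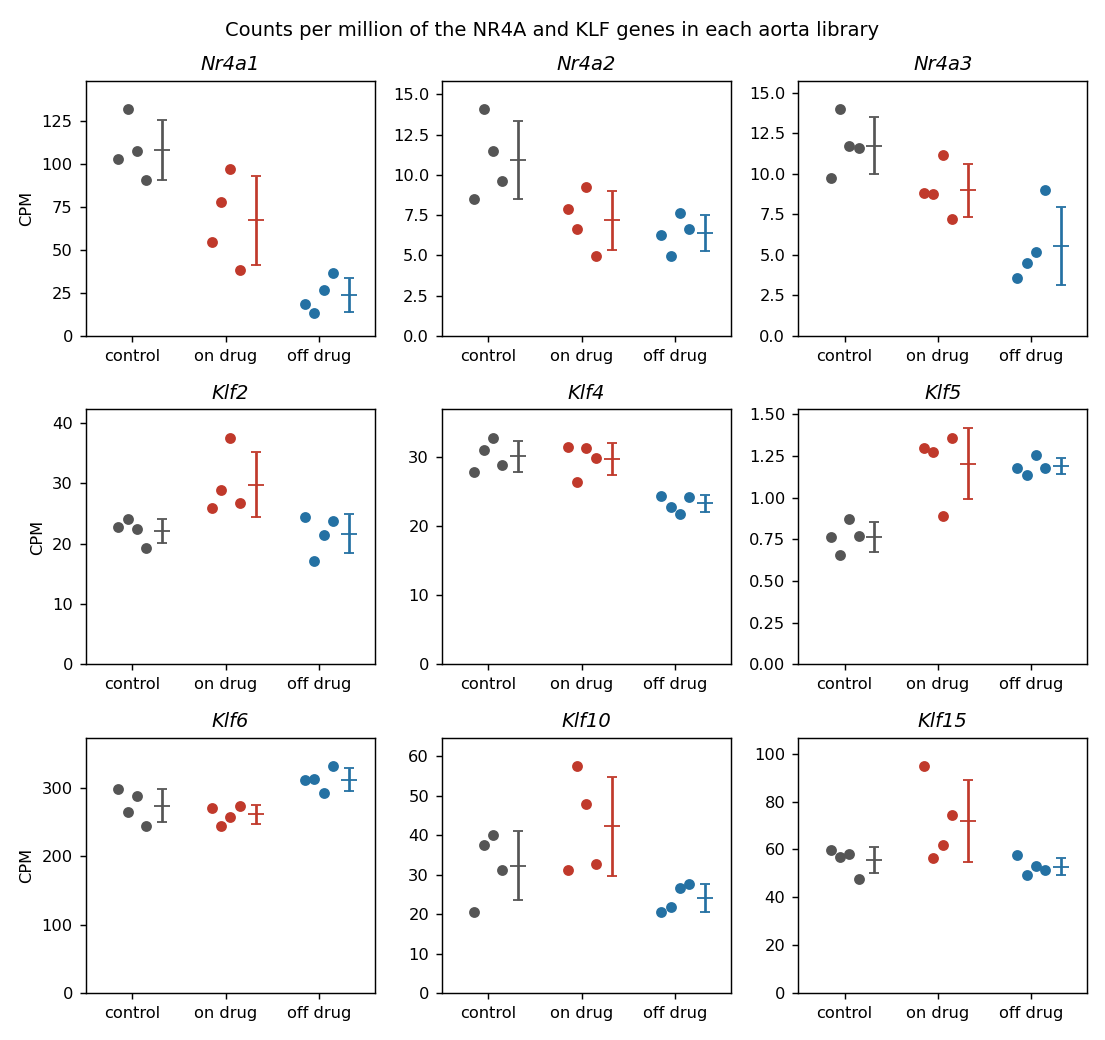
CPM (y axis, from 0, scaled per gene) in each library of the control, on-drug and off-drug groups; points are libraries, and the bar beside them is the mean ± SD (n = 4). Nr4a1 lies between 90.6 and 132 CPM in controls and between 13.4 and 36.5 CPM off drug, and the off-drug libraries of Klf4 lie below all others.

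The 3 NR4A genes had their lowest group means after the drug-free week. Nr4a1 fell from 108 ± 17.3 CPM in controls to 23.8 ± 10.1 CPM off drug, a log2 fold change of -2.18 ± 0.37 (SE). Nr4a3 fell by 1.07 and Nr4a2 by 0.78 on the log2 scale. Nr4a1 also fell between the end of treatment and the drug-free week, a step in which Nr4a2 and Nr4a3 did not pass the test. On drug, none of the 3 passed the test against controls.

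Nr4a1 (Nur77; ENSMUSG00000023034.6, chromosome 15, 101266846 to 101274792, plus strand, GRCm38) was measured at 103, 132, 108 and 90.6 CPM in control libraries 1 to 4. The on-drug libraries had 54.9, 78.2, 97.2 and 38.6 CPM and the off-drug libraries 18.6, 13.4, 26.6 and 36.5 CPM. All off-drug libraries lay below all others, and of the on-drug libraries only the third reached the control range. The difference from controls was -0.69 ± 0.35 on drug (adjusted p = 0.290, edgeR's quasi-likelihood test) and -2.18 ± 0.37 off drug (adjusted p = 0.00501). From on drug to off drug it was -1.49 ± 0.36 (adjusted p = 0.0259).

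Nr4a3 (NOR1; ENSMUSG00000028341.9, chromosome 4, 48045153 to 48086447, plus strand) had 9.73, 14.0, 11.7 and 11.6 CPM in controls. On drug it had 8.81, 8.78, 11.2 and 7.24 CPM, and off drug 3.56, 4.49, 5.16 and 9.0 CPM. The fourth off-drug library stood above the other off-drug libraries, yet below all controls, and it lay within the on-drug range. The log2 fold change from controls was -0.39 ± 0.25 on drug (adjusted p = 0.408) and -1.07 ± 0.25 off drug (adjusted p = 0.0192). Relative to on drug, off drug gave -0.68 ± 0.25, which did not pass (adjusted p = 0.113). It passed without off-drug library 4 (-1.02, adjusted p = 0.000529).

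Nr4a2 (NURR1; ENSMUSG00000026826.13, chromosome 2, 57106830 to 57124003, minus strand) had 8.49, 14.1, 11.5 and 9.65 CPM in controls, 7.89, 6.66, 9.26 and 4.95 CPM on drug, and 6.26, 4.94, 7.63 and 6.66 CPM off drug. Off-drug values lay below all controls and overlapped the on-drug range, with the second off-drug library just below the lowest on-drug library, and 1 on-drug library overlapped the controls. The log2 fold change from controls was -0.61 ± 0.20 on drug (adjusted p = 0.0849) and -0.78 ± 0.20 off drug (adjusted p = 0.0217). Between on drug and off drug it was -0.17 ± 0.20 (adjusted p = 0.671). The on-drug difference passed in 2 of 26 other settings, DESeq2 (adjusted p = 0.01155) and the fit without control library 1 (adjusted p = 0.0423).

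The calls of Nr4a2 and Nr4a3 off drug depended on single libraries. Nr4a2 missed the threshold without control library 3 (adjusted p = 0.0604), off-drug library 1 (0.0594) or off-drug library 2 (0.0525). Nr4a3 missed it without off-drug library 2 (0.0528) or 3 (0.0558). Nr4a1 off drug against control passed in all 12 fits that left out 1 library. Its difference from on drug to off drug missed the threshold without off-drug library 1 (0.0755), 2 (0.0549) or 3 (0.0572), or without on-drug library 2 (0.0679) or 3 (0.0680), and also in a fit of those 2 groups alone (0.0695).

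Klf4 was the KLF gene that fell off drug against both other groups. Klf4 (ENSMUSG00000003032.8, chromosome 4, 55527143 to 55532466, minus strand) had 27.8, 31.1, 32.8 and 28.9 CPM in controls and 31.4, 26.4, 31.3 and 29.8 CPM on drug. Off drug it had 24.4, 22.8, 21.8 and 24.2 CPM. The highest off-drug library lay below the lowest of the other 8. The log2 fold change was -0.37 ± 0.07 against controls (adjusted p = 0.00282) and -0.35 ± 0.07 against on drug (adjusted p = 0.00335), both of which passed in all 12 fits that left out 1 library. On drug against control it was -0.02 ± 0.07 (adjusted p = 0.923), with either sign across the other settings.

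Klf2, its flow-induced relative (ENSMUSG00000055148.7, chromosome 8, 72319033 to 72321656, plus strand), was highest on drug. Controls had 22.8, 24.0, 22.4 and 19.3 CPM, on-drug libraries 25.9, 28.9, 37.5 and 26.8 CPM, and off-drug libraries 24.4, 17.1, 21.4 and 23.7 CPM. All on-drug libraries exceeded the other 8, and the third was the highest. Its log2 fold change was 0.43 ± 0.13 on drug against control (adjusted p = 0.0549), -0.46 ± 0.13 off drug against on drug (adjusted p = 0.0264) and -0.03 ± 0.13 off drug against control (adjusted p = 0.914). The fall from on drug to off drug missed the threshold without on-drug library 3 (0.0634), off-drug library 2 (0.0581) or off-drug library 3 (0.0625). The on-drug difference passed in 7 of 26 other settings. Among them were DESeq2 (0.0126), a stricter filter (0.0377), and fits without on-drug library 1 (0.0312) or off-drug library 2 (0.0256).

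Summed markers of endothelial cells, fibroblasts, macrophages and smooth muscle had, like Klf2, their highest group median on drug. The 10 endothelial markers, none at 0, summed to 770 to 871 CPM in controls, 949 to 1087 CPM on drug and 705 to 899 CPM off drug. Of the 10, 2 were called higher and 0 lower on drug, and 1 higher and 4 lower off drug against on drug. With the mean z score of the endothelial markers as a covariate, the difference in Klf2 from on drug to off drug was -0.21 (adjusted p = 0.400), that in Nr4a1 was -1.10 (adjusted p = 0.198), that in Klf6 was 0.30 (adjusted p = 0.0551), and Klf4 kept its call. Klf4 off drug against control also kept its call with this covariate. The endothelial score ran from 0.230 to 1.037 on drug and from -1.615 to 0.076 off drug, without overlap. In that comparison the fit therefore cannot fully tell the endothelial score and the group apart. Over all genes it called 808 higher and 1052 lower there, against 1341 and 1706 without the covariate. The 7 fibroblast markers, none at 0, summed to 3496 to 3947 CPM in controls, 4307 to 4783 CPM on drug and 3433 to 3836 CPM off drug, with 0 higher and 4 lower off drug against on drug. Of the 7 macrophage markers 0 were higher and 5 lower in that comparison. The part of the fibroblast and macrophage markers in the results was not tested.

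Klf5 (ENSMUSG00000005148.7, chromosome 14, 99298691 to 99313405, plus strand), a growth-associated factor of activated smooth muscle, was scarce. Controls had 0.762, 0.656, 0.873 and 0.771 CPM, on-drug libraries 1.29, 1.27, 0.888 and 1.36 CPM, and off-drug libraries 1.18, 1.14, 1.25 and 1.18 CPM. Controls lay below all other libraries, although the third on-drug library was close to them. The log2 fold change against controls was 0.66 ± 0.21 on drug (adjusted p = 0.0574) and 0.63 ± 0.20 off drug (adjusted p = 0.0493). The off-drug call was just inside the threshold and held in 5 of 26 other settings, among them 1 of the 12 fits without 1 library, with adjusted p up to 0.129 in those fits. Off drug and on drug differed by -0.03 ± 0.20 (adjusted p = 0.957).

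Klf6, an injury-induced factor (ENSMUSG00000000078.6, chromosome 13, 5861489 to 5870393, plus strand), had 298, 264, 288 and 244 CPM in controls. On drug it had 271, 244, 257 and 274 CPM, and off drug 312, 313, 292 and 331 CPM. Off-drug libraries lay above all on-drug libraries and overlapped the highest control. Klf6 rose from on drug to off drug by 0.26 ± 0.07 on the log2 scale (adjusted p = 0.0168). The call ended without on-drug library 2 (0.0659) or off-drug library 4 (0.0527). Against controls the changes were -0.06 ± 0.07 on drug (adjusted p = 0.640) and 0.19 ± 0.07 off drug (adjusted p = 0.0740), the latter passing without control library 1 (0.0309).

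Klf10, induced early by TGF-beta (ENSMUSG00000037465.9, chromosome 15, 38294413 to 38300707, minus strand), varied widely. It had 20.5, 37.5, 40.1 and 31.2 CPM in controls, 31.3, 57.5, 47.8 and 32.7 CPM on drug, and 20.4, 21.8, 26.7 and 27.5 CPM off drug. Off-drug libraries lay below all on-drug libraries, while the controls spanned both groups. Its log2 fold change was 0.39 ± 0.25 on drug against control (adjusted p = 0.426), -0.42 ± 0.25 off drug against control (adjusted p = 0.346) and -0.81 ± 0.26 off drug against on drug (adjusted p = 0.0725). The last passed without control library 1 (0.0376) and in DESeq2 (0.0112).

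Klf15, a metabolic factor under glucocorticoid and clock control (ENSMUSG00000030087.11, chromosome 6, 90462576 to 90475238, plus strand), had 59.9, 56.9, 58.0 and 47.8 CPM in controls. On drug it had 94.8, 56.3, 61.7 and 74.6 CPM, and off drug 57.5, 49.2, 53.1 and 51.4 CPM. The on-drug group held both the highest libraries and one within the control range, so the groups overlapped. Its log2 fold change was 0.37 ± 0.14 on drug (adjusted p = 0.132), -0.08 ± 0.14 off drug against control (adjusted p = 0.786) and -0.45 ± 0.14 off drug against on drug (adjusted p = 0.0548). Without on-drug library 2, the on-drug difference (0.0398) and the off-drug difference from on drug (0.00941) passed, and the latter also passed without on-drug library 3 (0.0431) and in DESeq2 (0.00460).

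**Figure D3:**
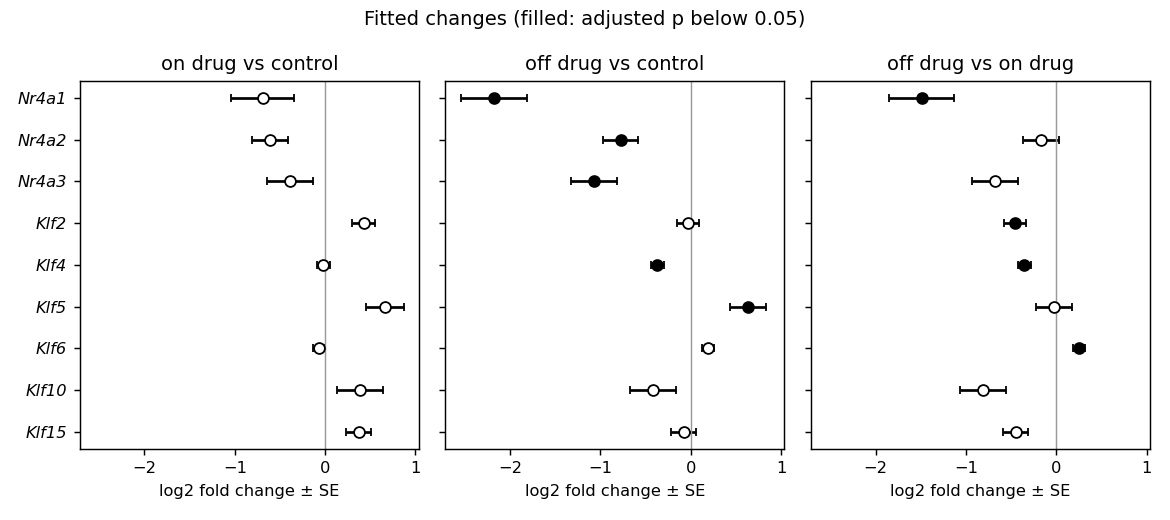
Log2 fold change ± SE (x axis) of the 9 genes in the 3 comparisons; filled points had an adjusted p below 0.05 in edgeR's quasi-likelihood test. No point is filled for on drug and control, 5 are filled for off drug and control, and 4 for off drug and on drug.

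Counted over the 9 genes, none was called on drug against control, where 7.07% of all genes tested were called (4.13% higher and 2.94% lower). At an unadjusted p below 0.05 there were 4 (Klf2, Klf5, Klf15 and Nr4a2), against 22.6% of all genes. DESeq2 called 3 of the 9 higher (Klf2, Klf5 and Klf15) and 1 lower (Nr4a2), and over all genes 1416 higher and 1324 lower. Klf2 and Klf5 were higher with no overlap between groups, against 6.30% of all genes, and 0 were lower without overlap, against 6.01%. The median log2 fold change of the 9 was -0.02, and that of all genes 0.0049.

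Off drug against control, 1 of 9 was called higher (Klf5) and 4 lower (Klf4, Nr4a1, Nr4a2 and Nr4a3), where 12% of all genes were called (6.27% higher and 5.77% lower). The same 5 genes had no overlap between groups, against 9.20% higher and 7.73% lower over all genes. The median of the 9 was -0.37, and that of all genes -0.0077. Relative to on drug, 1 gene was called higher off drug (Klf6) and 3 lower (Klf2, Klf4 and Nr4a1), against 12.4% of all genes (5.44% higher and 6.92% lower). In this comparison 1 gene was higher and 4 lower without overlap, the 4 being the called ones and Klf10, against 9.44% and 9.37%. The median of the 9 was -0.45, and that of all genes -0.0011. The comparisons share groups, so their counts are not independent.

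Other markers and gene lists differed between the same groups. Erythroid markers (7 genes, none at 0) summed to 4925 to 20570 CPM in controls and 2038 to 4801 CPM off drug, with 0 higher and 7 lower. Macrophage markers (7 genes, none at 0) summed to 419 to 496 CPM in controls, 492 to 532 CPM on drug and 359 to 397 CPM off drug, with 0 higher and 4 lower off drug against control. The part of the erythroid markers in the results was not tested either. Skeletal muscle markers (8 genes, none at 0) were low, at 5.42 to 7.21 CPM in controls, 8.27 to 10.3 CPM on drug and 7.50 to 19.7 CPM off drug, with 2 higher and 0 lower off drug against control. With their mean z score as a covariate the off-drug differences from control were -1.51 for Nr4a1 (adjusted p = 0.0833), -0.64 for Nr4a3 (adjusted p = 0.293), -0.31 for Nr4a2 (adjusted p = 0.512) and -0.30 for Klf4 (adjusted p = 0.151). Those from on drug to off drug were -1.17 for Nr4a1 (adjusted p = 0.0577) and -0.31 for Klf2 (adjusted p = 0.128). The skeletal muscle score ran from -1.099 to -0.019 in controls and from -0.048 to 1.649 off drug, with little overlap. The fit therefore can hardly tell this score and the group apart off drug against control. There it called 435 genes higher and 420 lower over all genes. With the fat markers as a covariate, off drug against control gave 0 of the 9 higher and 4 lower. Off drug against on drug then gave 1 higher and 3 lower. Off-drug libraries 1 and 2 had the lowest fat marker sums (77.7 and 67.4 CPM). Leaving both out was chosen after seeing the data. Off drug against control, it gave -1.78 for Nr4a1 (adjusted p = 0.0480) and -0.40 for Klf4 (adjusted p = 0.0242). Nr4a3 was then at -0.73 (adjusted p = 0.0819) and Nr4a2 at -0.62 (adjusted p = 0.184). Over all genes that fit called 600 higher and 652 lower, against 1545 and 1422 with all libraries. Leaving out off-drug libraries 1 and 2 also changed off drug against on drug, to -1.09 for Nr4a1 (adjusted p = 0.168), -0.40 for Klf2 (adjusted p = 0.0943) and 0.25 for Klf6 (adjusted p = 0.112).

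Immediate-early genes are the class to which the NR4A genes belong. Of 23 tested genes, the NR4A genes not among them, 0 were called higher and 10 lower against control, with a median log2 fold change of -0.69. Egr1, a zinc finger factor of the early growth response, fell from 109.8 ± 13.01 to 16.5 ± 2.46 CPM (-2.74 ± 0.22, adjusted p = 5.2e-05). Its relative Egr2 fell from 10.8 ± 1.70 to 1.90 ± 0.31 CPM (-2.52 ± 0.22, adjusted p = 4.1e-06), and the small MAF factor gene Maff by 0.66 (SE 0.10). On drug 1 was higher (Ier3, 0.69 ± 0.09) and 1 lower (Egr2, -1.20 ± 0.21), with a median of -0.16. Relative to on drug, 0 were higher and 10 lower off drug, among them Egr1 (-2.10 ± 0.22), Maff (-0.95 ± 0.10) and Ier3 (-0.81 ± 0.09).

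**Figure D4:**
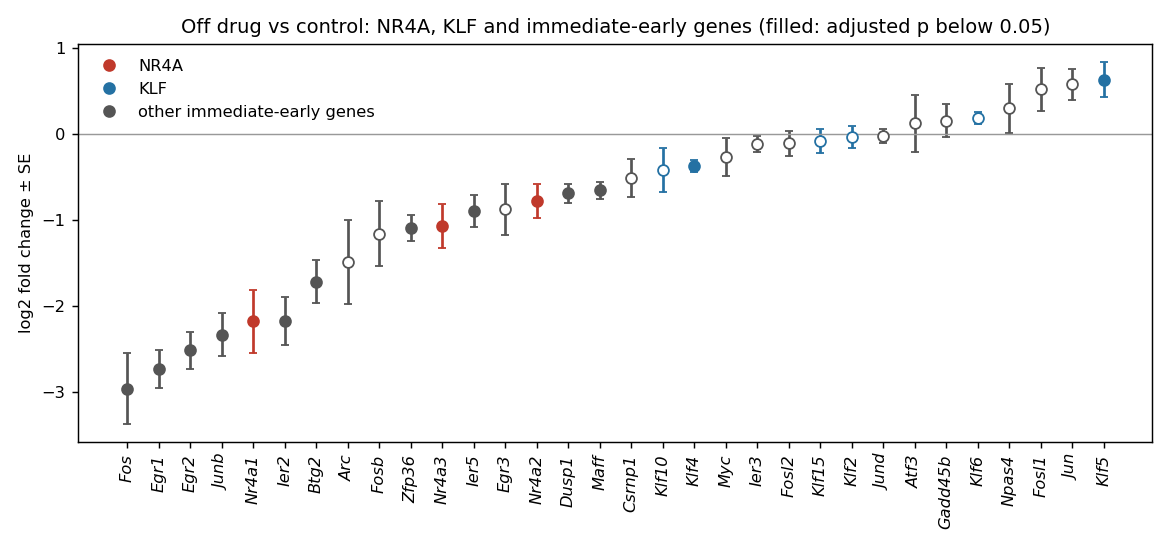
Log2 fold change ± SE off drug against control (y axis) of the 3 NR4A genes (red), the 6 KLF genes (blue) and 23 immediate-early genes (grey), ordered by value; filled points had an adjusted p below 0.05. Nr4a1 at -2.18 stands between Junb at -2.34 and Ier2 at -2.18, and Fos at -2.96, Egr1 at -2.74 and Egr2 at -2.52 lie lower. Klf5 at 0.63 is the filled point above 0.

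Clock genes differed in both directions, with 10 higher and 5 lower of 19 off drug against control. Cry1, a clock repressor, rose by 2.15 ± 0.14 and Clock, a core activator, fell by 1.10 (SE 0.08) on the log2 scale. On drug 9 were higher and 3 lower. With the mean z score of clock genes as a covariate the off-drug differences from control were -3.13 for Nr4a1 (adjusted p = 0.166), -2.02 for Nr4a3 (adjusted p = 0.0832), -1.05 for Nr4a2 (adjusted p = 0.367) and -0.38 for Klf4 (adjusted p = 0.373). Over all genes that fit called 44 higher and 39 lower. The clock score ran from -0.497 to -0.181 in controls and from 0.064 to 0.449 off drug, without overlap. The fit therefore cannot tell the clock score and the group apart. Of 14 glucocorticoid-responsive genes, 0 were higher and 2 lower off drug against control, Cdkn1a (-1.18 ± 0.17) and Map3k6 (-0.44 ± 0.08). From on drug to off drug 1 was higher (the receptor gene Nr3c1, 0.30 ± 0.06) and 6 lower.

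A further list of 20 genes of CREB, MEF2, RXR partners and class II histone deacetylases was examined. Crem, a CREB-family factor that includes an inducible repressor, fell on drug (-0.51 ± 0.11, adjusted p = 0.00733) and was the only one of the 20 called off drug against control (-0.60 ± 0.11, adjusted p = 0.00105). On drug 2 were higher, the deacetylase Hdac7 (0.36 ± 0.08) and Mef2d (0.43 ± 0.12). The 3 lower on drug were Crem, Mef2c (-0.38 ± 0.09) and Creb1 (-0.29 ± 0.07, adjusted p = 0.0215). From on drug to off drug Hdac7 and Mef2c moved the other way, by -0.54 ± 0.08 and 0.35 ± 0.09, and no other gene of the 20 was called.

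Of 9 genes of the ERK5 and flow-sensing pathway upstream of KLF2 and KLF4, 1 was higher and 1 lower on drug, 1 lower off drug against control and 2 lower from on drug to off drug. Heg1, a receptor that anchors the cerebral cavernous malformation complex, rose on drug from 219.5 ± 25.7 to 337 ± 18.1 CPM (0.62 ± 0.07, adjusted p = 7.2e-05). Heg1 then fell to 163 ± 3.26 CPM off drug, which was -0.43 ± 0.07 against control and -1.05 ± 0.07 against on drug. Pdcd10, of the same complex, fell on drug (-0.30 ± 0.09), and the stretch-gated channel gene Piezo1 fell from on drug to off drug (-0.52 ± 0.10).

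Among 10 endothelial genes known to respond to KLF2 and KLF4, 1 was higher and 2 lower on drug. The prostaglandin transporter gene Slco2a1 rose (0.62 ± 0.10), and endothelin-1 (Edn1, -0.58 ± 0.12) and the lipid phosphatase gene Plpp3 (-0.32 ± 0.06) fell. Off drug against control 2 were higher and 3 lower, the latter being thrombomodulin (Thbd, -0.47 ± 0.06), Plpp3 (-0.36 ± 0.06) and the sphingosine receptor S1pr1 (-0.48 ± 0.09). From on drug to off drug 2 were higher and 4 lower, with Edn1 at 0.98 ± 0.12, Thbd at -0.55 ± 0.06 and S1pr1 at -0.57 ± 0.09. Genes that KLF2 and KLF4 are known to raise (Thbd and S1pr1) and one they are known to lower (Edn1) differed in opposite directions from on drug to off drug.

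Of the other KLF genes 9 of 11 were tested. Klf13 was higher than in controls on drug (0.31 ± 0.07) and off drug (0.25 ± 0.07), and Klf9 rose on drug (0.25 ± 0.06) and fell from on drug to off drug (-0.28 ± 0.06). No other KLF gene of this list was called. In the related SP family, 7 of 9 genes were tested. Off drug against control 3 were higher and 0 lower, namely Sp1 (0.26 ± 0.06), Sp2 (0.53 ± 0.16) and Sp4 (0.26 ± 0.08), and on drug Sp3 was lower (-0.26 ± 0.07). Of 6 metabolic genes linked to KLF15, the proline dehydrogenase gene Prodh was the one called in any comparison, higher off drug than in controls (0.57 ± 0.15).

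Across the 12 libraries the genes' log2 CPM values were also compared with one another and with 12379 well-expressed genes. These correlations are descriptions, since libraries share groups and group differences enter them. Nr4a1 varied with Nr4a3 (Pearson r 0.934), with Nr4a2 (0.802) and with Klf4 (0.782). Klf5 ran opposite to Nr4a2 (-0.807) and Klf6 opposite to Klf10 (-0.742). Outside the 9 genes, Nr4a1 was closest to Bik (0.958), Ano2 (0.950) and the immediate-early gene Btg2 (0.950), and Nr4a3 to Skil (0.916), Slc30a6 (0.915) and Dram2 (0.914). Nr4a2 was closest to Polr3d (0.892), Emd (0.890) and Cp (0.880).

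Among the KLF genes, Klf2 was closest to Plcg2 (0.948), Rell2 (0.944) and Sorcs2 (0.931), and Klf4 to Ptprr (0.950), Mertk (0.907) and Osbpl1a (0.907). The genes nearest to Klf6 were Ap1ar (0.960), Qtrtd1 (0.948) and Mlh3 (0.935). Klf5 was closest to Anpep (0.895), Ror1 (0.895) and Tcap (0.886), Klf10 to Map3k14 (0.913), Wnt9a (0.902) and Lfng (0.901), and Klf15 to Trp53inp1 (0.902), Spsb1 (0.875) and Csf1 (0.871).

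**Figure D5:**
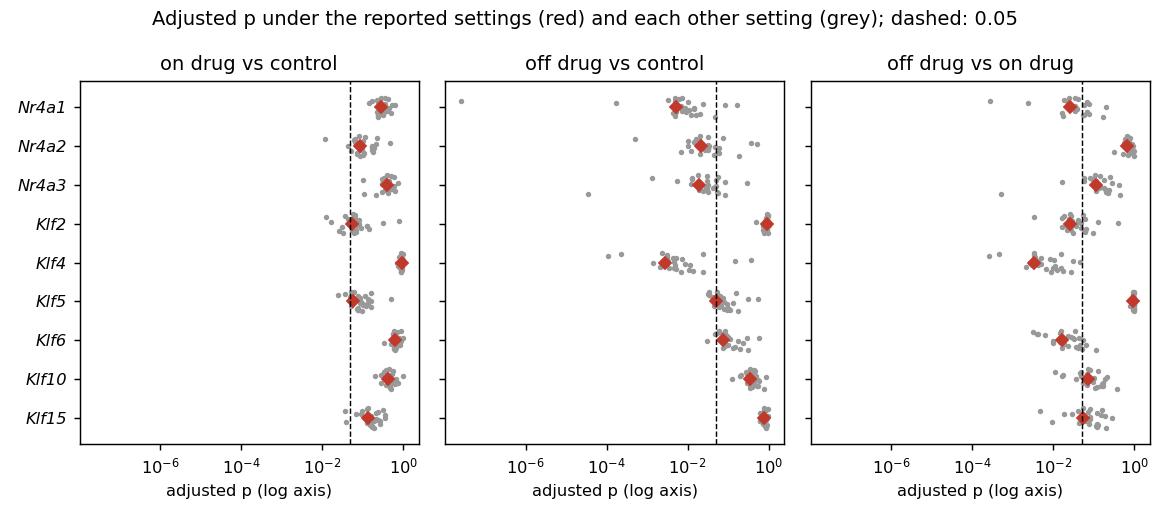
Adjusted p (x axis, log scale) of the 9 genes in the 3 comparisons under the reported settings (red diamonds) and each of 26 other settings (grey points); the dashed line is 0.05. Klf4 off drug against on drug stays left of the line under all 26, whereas Klf5 off drug against control does so under 5.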

How the data were processed

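Each deposited sample file gives raw counts for the genes of GENCODE M13, which featureCounts 1.4.6-p3 produced, and names a STAR index of version 2.5.3a, per the file headers. GRCm38 is the build that the submitters' processing notes list. Multi-mapping and multi-overlapping reads were counted for each gene and no strand was set, per the file headers; no exon of the 9 genes overlapped another gene. The deposited log2 table, which the authors scaled with size factors, gave symbols and coordinates only.

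The fit used edgeR 4.0.16 in R 4.3.3 (filterByExpr with minimum count 10 and minimum total 15, TMM, robust quasi-likelihood fit of 3 groups over 12 libraries). The 3 contrasts were tested two-sided, with Benjamini-Hochberg adjustment over 24660 genes and a call at an adjusted p below 0.05. SEs come from the F statistic. P-values set the differences between groups against the spread between these libraries. The steps were tested on simulated counts. Other settings included DESeq2 1.42.0, limma 3.58.1 (voom), other filters and scalings, a replicate block, covariates and each library left out; leaving out off-drug libraries 1 and 2 together was chosen after seeing the data. The 9 genes and the lists were chosen with earlier results of these data known. Named genes were the 9, up to 3 called genes per list and comparison by smallest adjusted p, and for each of the 9 the 3 with the highest correlation. Creb1 and Mef2d, and the immediate-early genes in the caption of the off-drug changes, were named besides. Protein sequences were not used here.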

Additional observations from a re-analysis of the deposited data

Results flagged for a closer look

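Klf5 in on-drug library 3 lay apart from the rest of its group, at 0.888 CPM against 1.27 to 1.36 CPM in the other 3, and next to the highest control at 0.873 CPM. On the log2 CPM scale its gap was 0.847 of the group's range, above the critical value of Dixon's test for 4 samples. The result depends on this scale, since in the CPM printed here the gap is a smaller share, below that value. Of 27 groups checked, 1 was marked, and chance marks about 1 in 20.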

How the results depend on the processing

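Of 702 refits of single genes (9 genes, 3 comparisons, 26 other settings), 593 kept direction and side of the threshold, 60 lost the call, 31 gained one and 18 changed sign, none of the last on a called value. The cause was not tested. The sign changes on the log2 scale were, on drug against control, Klf4 at 0.019 (library size alone), 0.012 (skeletal muscle covariate), 0.019 (without control library 3) and 0.027 (without on-drug library 2; lowest -0.062 without 1 library), and Klf10 at -0.10 (clock covariate). Off drug against control they were Klf2 at 0.022 (library size alone), 0.24 (skeletal muscle covariate), 0.032 (endothelial covariate), 0.0030 (without control library 2), 0.067 (without off-drug library 2; lowest -0.096 without 1 library) and 0.021 (off-drug libraries 1 and 2 left out), and Klf15 at 0.28 (clock covariate) and 0.043 (skeletal muscle covariate). For off drug against on drug they were Klf5 at 0.016 (clock covariate), 0.012 (without on-drug library 1), 0.034 (without on-drug library 4; lowest -0.137 without 1 library) and 0.0067 (off-drug libraries 1 and 2 left out), and Nr4a2 at 0.070 (skeletal muscle covariate).

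On drug against control, 2 of the 9 genes were called higher with the stricter filter, 3 with DESeq2, and 1 each with the 2 groups alone, without robust estimation, with the skeletal muscle covariate and with off-drug libraries 1 and 2 left out; 1 was called lower with DESeq2. Leaving out 1 library gave 0 to 1 in each direction. Off drug against control, the higher call was 0 with DESeq2 size factors, no filter, the 2 groups alone, each of the 4 covariates and off-drug libraries 1 and 2 left out, and 0 to 1 without 1 library. The lower calls were 2 with no filter (Nr4a2 at an adjusted p of 0.0764 and Nr4a3 at 0.0557), 0 with the clock or skeletal muscle covariate, 2 with off-drug libraries 1 and 2 left out, and 2 to 4 without 1 library. For off drug against on drug, the higher call was 0 with the endothelial covariate and with off-drug libraries 1 and 2 left out, and 0 to 1 without 1 library. The lower calls were 5 with the stricter filter, DESeq2, without robust estimation or with the clock covariate, 1 with the 2 groups alone, the skeletal muscle or endothelial covariate or off-drug libraries 1 and 2 left out, and 1 to 4 without 1 library.

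Over all genes, on drug against control gave 1018 higher and 725 lower. This became 21 and 14 with the clock covariate, 569 and 346 with the skeletal muscle covariate, 381 and 211 with the endothelial covariate, 388 lower with library size alone, 1324 lower with DESeq2, 463 lower with the 2 groups alone, and 472 to 1330 higher and 323 to 960 lower without 1 library. Off drug against control gave 1545 higher and 1422 lower, which became 44 and 39 with the clock covariate, 435 and 420 with the skeletal muscle covariate, 600 and 652 with off-drug libraries 1 and 2 left out, 844 lower with library size alone, and 1003 to 1926 higher and 982 to 1627 lower without 1 library. From on drug to off drug there were 1341 higher and 1706 lower genes, which became 808 and 1052 with the endothelial covariate and 630 and 972 with off-drug libraries 1 and 2 left out.

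Replicate numbers did not pair the libraries: same-numbered pairs correlated at -0.0797 to 0.0672, and 2 of 12 libraries correlated best with their own number. With the replicate number as a block, off drug against control gave 0 of the 9 higher (Klf5 at an adjusted p of 0.0731) and 4 lower, and off drug against on drug 1 higher and 4 lower. There Nr4a1 was -1.47 (0.0766), and Klf10 at -0.77 (0.0164) and Klf15 at -0.43 (0.0183) passed. Depth limits Klf5 most, with 38 counts in its lowest library.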
